A study of Homo sapiens and Mus musculus with 7 samples.

Results

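Replication-dependent histone genes were examined in HEL, an established line of human erythroleukaemia cells with red cell and megakaryocyte features. Members were all genes of the deposited RNA table whose symbol starts with HIST1H, HIST2H, HIST3H or HIST4H. This gave 42 of the 14903 genes analysed, which were kept from 14946 symbols in the table. The 42 stood on 44 rows, because HIST1H2BD and HIST2H2BF each had a second transcript. By class they were 1 H1 gene, 12 H2A genes, 16 H2B genes (2 of them annotated as pseudogenes, HIST2H2BA and HIST2H2BD), 7 H3 genes and 6 H4 genes. By locus, 28 lay in HIST1, 12 in HIST2, 2 in HIST3 and 0 in HIST4. The study crossed knockdown of KAP1, the corepressor encoded by TRIM28, with hemin, an inducer of haemoglobin in these cells, given at 50 µM for 5 days. The 4 groups were knockdown without hemin, knockdown with hemin, control without hemin and control with hemin, each a single library. Control columns carry the name Ctrl and the labels call these cells KAP1 WT, so every knockdown ratio rests on matching those names. The sources used here do not say how KAP1 was knocked down or whether the cells were a clone or a mixed culture. With 1 library per group no p-value was computed, and each ratio compares libraries, not repeated cultures.

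Core histones H2A, H2B, H3 and H4 form the protein spool on which DNA is wound, and H1 binds the DNA entering and leaving it. Genes of these clusters are transcribed in S phase at the histone locus body, which is organised by NPAT, so that new DNA can be packed as it is made. Their mRNAs usually end in a stem-loop bound by SLBP in place of a poly-A tail, and some members are also made with a tail. Libraries were prepared with a TruSeq RNA v2 kit, a type that captures RNA by its tail. The values below therefore describe the captured portion of each histone mRNA, and a change in amount and a change in tailing cannot be told apart. In a bulk sample, fewer cells in S phase and less histone mRNA per cell cannot be told apart either.

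TRIM28 was lower in both knockdown libraries. It measured 317 scaled TPM in knockdown cells and 421 in control cells without hemin (log2 ratio -0.41), and 190.1 against 400.2 with hemin (-1.07). Scaled TPM is reads over transcript length, divided by the library's effective read total, so it can be compared between genes and libraries. The TRIM28 row held whole numbers, unlike the histone rows, so it has no counting interval. How that row was made is not known. It was scaled like the others, which may not suit it, so the size of its ratios and their difference between hemin states are uncertain. Libraries held between 23783973 and 41646552 reads on the chosen transcripts, of which 4514 to 22413 fell on histone genes. In these totals, histone copies with identical values have their shared reads counted under each copy. The erythroid and megakaryocytic markers GATA1, TAL1, KLF1, ITGA2B and the globins HBG1, HBG2, HBA1 and HBA2 were all far above the floor of 5 scaled TPM, and the monocyte marker CD14 lay between 0.111 and 0.366.

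Most histone genes had higher levels in the knockdown, whether hemin was present or not. Summed over the 39 distinct sets of reads, histone mRNA came to 1119 scaled TPM in knockdown cells and 368 in control cells without hemin, a ratio of 3.04. With hemin the sums were 1345 and 539, a ratio of 2.49. The order of the 4 sums was thus control, control with hemin, knockdown, knockdown with hemin. Among the classes, only the H2A sum was lower with hemin in the knockdown, at 376 without hemin and 333 with it. HIST1H2BK alone made up 29.1% to 39.7% of the sum, and without it the ratios were 3.58 and 2.53.

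Over all 42 members without any filter, 39 had a ratio above equality in the cells without hemin, against 51.8% of all genes, and the median log2 ratio was 1.60. The 95% counting interval, an exact conditional binomial interval on the reads, lay above equality for 33 members and below it for 0, against 37.5% and 35.4% of all genes. It covers counting error only. With hemin 38 members were above equality (50.3% of all genes), the median was 0.95, and the interval lay above equality for 36 and below it for 0 (36.9% and 36.1% of all genes). Ratios are of scaled TPM plus 0.5, which understates the change of low genes.

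A floor of 5 scaled TPM in the higher of the compared libraries left 29 members without hemin and 30 with hemin. Of the 29, 25 exceeded the control 2-fold or more (6.69% of all genes at the floor) and 0 fell short of it by as much (6.41%). Of the 30, 14 did so (5.99%), and again 0 in the other direction (4.13%). Since 14 of the 29 and 8 of the 30 reached the floor in the knockdown library alone, members were also taken by their mean over all 4 libraries. High knockdown levels raise this mean too, so it lessens that selection without removing it. Of the 24 whose mean reached 5, 20 were at least 2-fold higher without hemin (6.18% of all genes so chosen) and 13 with hemin (5.64%). Of the 22 distinct sets of reads with such a mean, 21 had both knockdown libraries above both controls, against 27.4% of genes. The pair HIST2H4A and HIST2H4B, which share their reads, was the exception among these 22. Over all 39 distinct sets without a floor, 32 had both knockdown libraries above both controls and 1 had both below. The share of all genes without a floor was not computed for this order.

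**Figure D1:**
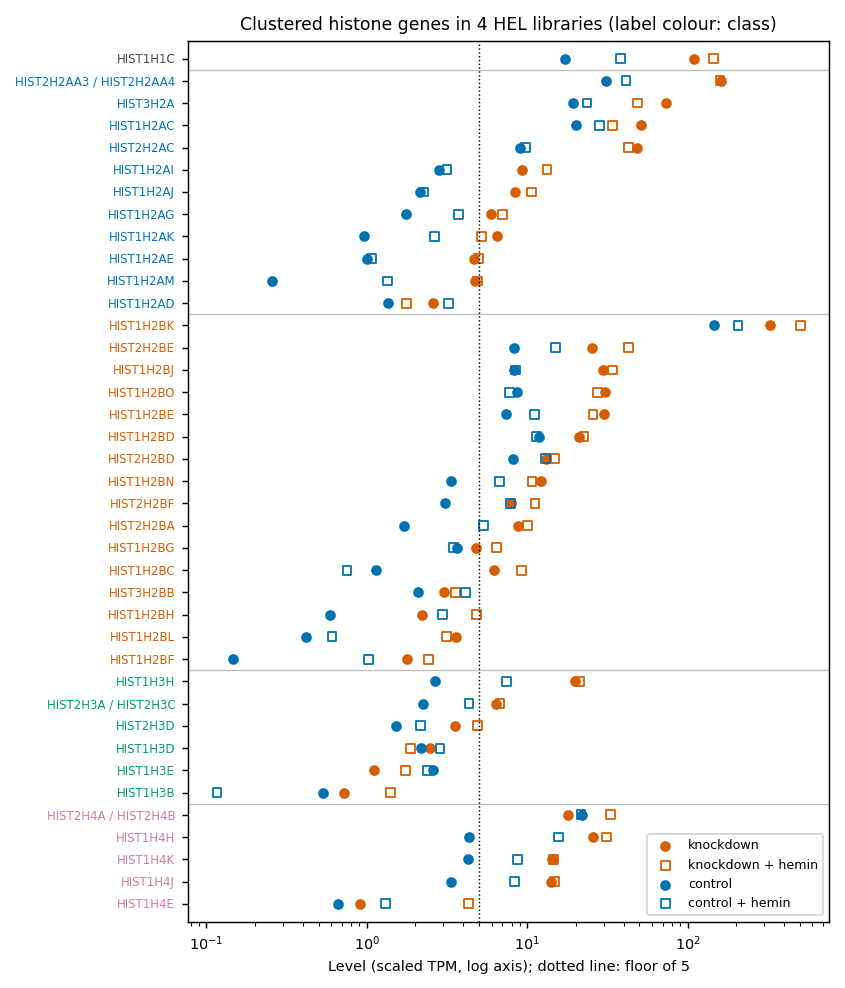
Level of each clustered histone gene in the 4 HEL libraries, in scaled TPM on a log axis, with 1 row per distinct set of reads, grouped by class. Filled marks are without hemin, open marks with hemin, and the dotted line is the floor of 5; most knockdown marks lie to the right of the control marks, and HIST1H2BK has the highest level in every library.

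Histone promoters carry short elements by which the classes are told apart, and 40 of the 42 members had a promoter window in the RefSeq table, of 250 bases before and 50 after the start. The 2 pseudogenes had none. The stretches printed here are the 250 bases before the start of 6 members on GRCh38.p14, chosen to show the linker histone, the most abundant H2B gene, an H2A and an H3 gene with large ratios, and the H4 members that differed most. The expression files use hg19, so these positions serve only to locate the sequences. They are HIST1H1C at chr6:26056471-26056720 (minus strand), HIST2H2AC at chr1:149886668-149886917 (plus strand), HIST1H2BK at chr6:27146856-27147105 (minus strand), HIST1H3H at chr6:27809801-27810050 (plus strand), HIST1H4H at chr6:26285535-26285784 (minus strand) and HIST2H4A at chr1:149832407-149832656 (plus strand). Each is written 5′ to 3′ on the strand of the gene, and capitals mark matches, on either strand, to the TATA box (TATAAA), the CCAAT box, the octamer (ATTTGCAT), the H1 box (AAACACA) or the H4 element (GGTCCG).
HIST1H1C: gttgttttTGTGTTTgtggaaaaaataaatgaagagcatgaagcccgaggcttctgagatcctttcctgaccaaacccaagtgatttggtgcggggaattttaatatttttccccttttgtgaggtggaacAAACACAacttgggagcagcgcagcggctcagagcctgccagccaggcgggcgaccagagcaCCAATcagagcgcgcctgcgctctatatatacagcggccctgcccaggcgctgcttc
HIST2H2AC: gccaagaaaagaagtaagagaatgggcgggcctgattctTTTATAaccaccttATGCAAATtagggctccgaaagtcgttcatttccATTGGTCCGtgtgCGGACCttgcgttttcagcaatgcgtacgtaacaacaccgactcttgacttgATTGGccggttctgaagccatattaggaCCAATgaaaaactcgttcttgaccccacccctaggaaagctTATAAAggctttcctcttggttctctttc
HIST1H2BK: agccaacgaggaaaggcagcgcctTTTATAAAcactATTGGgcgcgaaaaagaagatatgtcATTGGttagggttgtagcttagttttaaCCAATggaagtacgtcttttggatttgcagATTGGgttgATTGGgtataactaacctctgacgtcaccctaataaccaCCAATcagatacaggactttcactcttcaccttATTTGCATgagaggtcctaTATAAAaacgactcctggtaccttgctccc
HIST1H3H: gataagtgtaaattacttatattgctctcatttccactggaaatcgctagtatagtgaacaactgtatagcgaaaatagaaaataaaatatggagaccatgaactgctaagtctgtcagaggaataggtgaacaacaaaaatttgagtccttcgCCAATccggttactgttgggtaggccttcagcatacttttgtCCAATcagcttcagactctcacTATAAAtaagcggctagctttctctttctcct
HIST1H4H: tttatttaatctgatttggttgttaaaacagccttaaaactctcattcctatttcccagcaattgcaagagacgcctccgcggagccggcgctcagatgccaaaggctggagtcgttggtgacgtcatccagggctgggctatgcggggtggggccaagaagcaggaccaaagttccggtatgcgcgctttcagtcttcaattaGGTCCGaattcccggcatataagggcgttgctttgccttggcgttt
HIST2H4A: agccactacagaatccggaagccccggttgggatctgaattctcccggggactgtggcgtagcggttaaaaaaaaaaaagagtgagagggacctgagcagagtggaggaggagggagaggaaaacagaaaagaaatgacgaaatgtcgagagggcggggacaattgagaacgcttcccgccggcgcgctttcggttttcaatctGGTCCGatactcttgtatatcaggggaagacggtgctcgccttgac

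The TATA box TATAAA was found in 27 of the 40 windows, against 11.5% of all 35116 windows in the table. It was in 7 of 7 H3 windows, 9 of 12 H2A, 9 of 14 H2B, 2 of 6 H4 and 0 of 1 H1. CCAAT, the letters read by the factor NF-Y, was in 34 of 40 (34.6% of all windows), in every H1, H2A, H2B and H3 window and in 0 of the 6 H4 windows. The octamer ATTTGCAT, read by the POU factor OCT1, was in 10 of 14 H2B and 7 of 12 H2A windows and in 0 windows of the other classes (1.77% of all windows). GGTCCG, part of the H4 element read by HINFP, was in 6 of 6 H4 windows, starting at position -47 or -46, and in 8 of 40 in all (11.3%). The 2 other windows with it, those of the divergent genes HIST2H2AC and HIST2H2BE, each held 2 matches, of which 1 overlaps a CCAAT match. AAACACA, the H1 box, was at position -119 of HIST1H1C, and in 4 of 40 windows in all (5.64%). These are matches of letters, found by searching both strands. Among H2A windows the octamer lay on the strand of the gene only in HIST1H2AM, at -98, and among H2B windows on the other strand only in HIST1H2BO. In HIST1H2AE, HIST1H2BC, HIST1H2BO, HIST1H3D and HIST1H3E, TATAAA lay on the other strand only. A match in the stretch shared by divergent genes can count in both windows, so H2A and H2B counts are not independent.

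**Figure D2:**
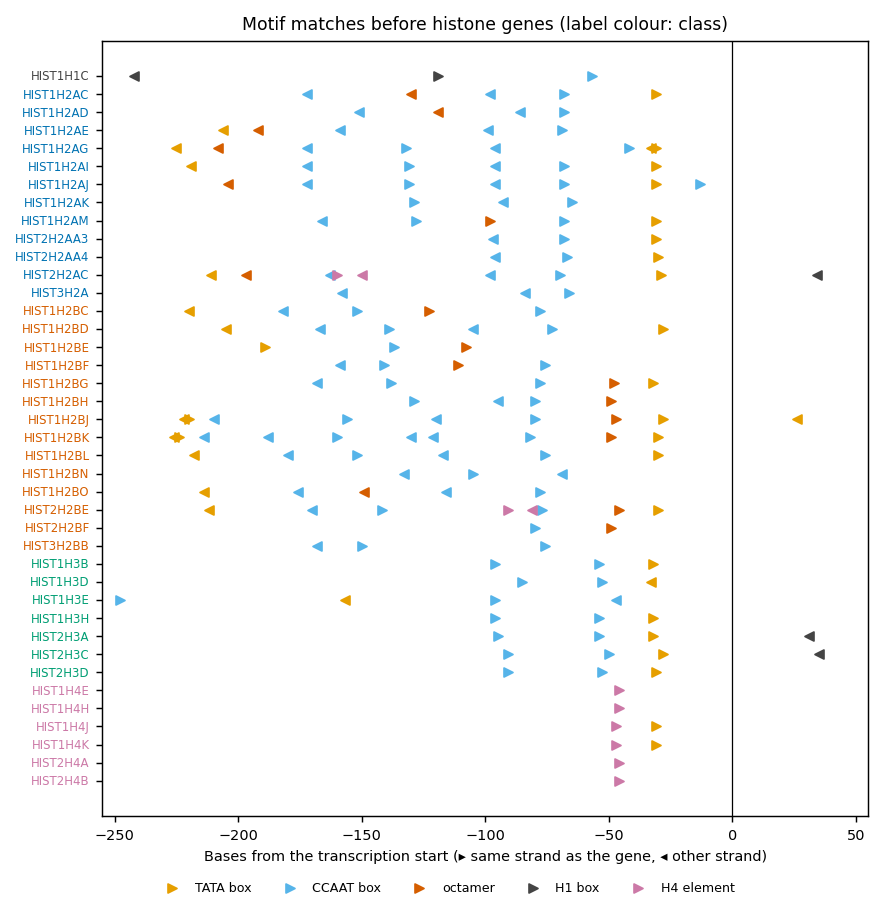
Position of motif matches in the promoter windows of 40 members, in bases from the transcription start, with 1 row per gene and the class shown by label colour. Each triangle is a match and points right when it lies on the strand of the gene; the H4 windows share a match near position -46, and the H3 windows share CCAAT and, in most, TATA matches on the strand of the gene.

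The single H1 gene of the table, HIST1H1C (NM_005319, RefSeq symbol H1-2), encodes a linker histone. Knockdown cells held 110.3 scaled TPM of its mRNA without hemin and 144 with it, and control cells 17.2 and 38.1. Both knockdown libraries were well above both controls. The log2 ratio of knockdown to control was 2.64 without hemin (95% counting interval 2.46 to 2.91, on 948 and 201 reads) and 1.91 with hemin (1.78 to 2.06). This H1 mRNA made up 9.86% of the histone sum in knockdown cells and 4.68% in control cells without hemin. With hemin these shares were 10.7% and 7.07%.

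H2A genes encode a core histone that pairs with H2B, and 9 of the 12 reached the floor in the knockdown comparisons. Their median log2 ratio was 1.90 without hemin and 1.91 with hemin, and all 9 intervals lay above equality in each state. Among all genes at the floor, this held for 4678 of 10868 without hemin and 4568 of 10893 with hemin. HIST1H2AI, HIST1H2AJ, HIST1H2AG and HIST1H2AK reached the floor in the knockdown libraries alone, which favours high ratios. Without a floor the medians over the 12 were 1.84 and 1.67. For 7 of the 9 the ratio was larger without hemin, with a median difference of -0.43, with minus without hemin. With identical copies counted once, an alternative chosen after seeing the data, the medians were 1.82 and 1.48. HIST2H2AA3 and HIST2H2AA4 had identical values in every library, so reads of these near-identical copies were not separated. Each was listed at 162 scaled TPM in knockdown cells without hemin, 159 in knockdown cells with it, and 31.1 and 41.2 in the matching control cells. Their log2 ratio was 2.36 (2.18 to 2.58) without hemin and 1.94 (1.79 to 2.11) with it. These were the most abundant H2A genes in all 4 libraries.

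HIST2H2AC (NM_003517), next to HIST2H2BE on the opposite strand, stood at 48.3 and 42.7 scaled TPM in the knockdown without and with hemin and at 9.04 and 9.80 in the controls. Its log2 ratio with hemin, 2.07 (1.77 to 2.49), was the highest of the H2A genes at the floor. HIST3H2A (NM_033445), of the HIST3 locus, stood at 73.0 and 48.9 in the knockdowns and at 19.2 and 23.6 in the controls. Its log2 ratio was 1.90 without hemin and 1.04 with hemin. HIST1H2AC (NM_003512) had the lowest ratios among the H2A genes at the floor. It stood at 50.8 scaled TPM in knockdown cells without hemin, 34.0 in knockdown cells with it, and 20.1 and 28.3 in the matching control cells. Its log2 ratio was 1.32 (1.07 to 1.61) without hemin and 0.26 (0.04 to 0.49) with hemin, where the libraries were close.

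The other H2A genes at the floor, HIST1H2AI, HIST1H2AJ, HIST1H2AG and HIST1H2AK, were low, with levels up to 13.3 scaled TPM. Their log2 ratios lay between 1.52 and 2.26 without hemin and between 0.81 and 2.02 with it. HIST1H2AE, HIST1H2AM and HIST1H2AD stayed below the floor in all 4 libraries. Of these HIST1H2AM had 27 and 50 reads in the knockdowns and 2 and 12 in the controls, and HIST1H2AD was the single H2A gene with a lower level in the knockdown with hemin, on 17 and 27 reads.

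Among H2B genes the median knockdown ratio was 1.71 on the log2 scale without hemin (11 of 16 at the floor) and 1.06 with hemin (12 of 16). HIST1H2BK (NM_080593) was the most abundant histone mRNA of all. Knockdown cells held 325 scaled TPM of its mRNA without hemin and 503 with it, and control cells 146 and 206. Its log2 ratio was 1.15 (1.07 to 1.23) without hemin and 1.29 (1.23 to 1.35) with hemin, on 2012 to 9129 reads. The length of its transcript, as the value of a single read gives it, was 863 bases, against 435 for HIST1H2BE, a more typical member.

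HIST2H2BE (NM_003528), with a long transcript of 2223 bases, was next in mean level. It stood at 25.2 and 43.0 scaled TPM in the knockdowns and at 8.24 and 15.0 in the controls, and its log2 ratios were 1.56 and 1.49. HIST1H2BJ (NM_021058) stood at 29.6 and 33.8 in the knockdowns and at 8.21 and 8.45 in the controls, with log2 ratios of 1.79 and 1.94. For both genes the ratio was much the same in the presence and absence of hemin. HIST1H2BC (NM_003526) had the highest ratio with hemin of all members at the floor, 2.96, but on few reads. It had 85 reads in the knockdown with hemin and 6 in the control with hemin, and the counting interval ran from 2.44 to 5.10. Its levels were 6.22 and 9.23 scaled TPM in the knockdowns and 1.15 and 0.752 in the controls.

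Among the H2B members at the floor without hemin, the pseudogenes had the highest and the lowest ratio. HIST2H2BA had a log2 ratio of 2.07 (1.49 to 3.33), with levels of 8.76, 9.98, 1.70 and 5.33 scaled TPM in knockdown, knockdown with hemin, control and control with hemin. HIST2H2BD was at 0.65 (0.23 to 1.15), with levels of 13.2, 14.9, 8.19 and 12.9 in the same order. With hemin the interval of HIST2H2BD, -0.12 to 0.53 around 0.20, included equality, the single case among the 30 members at the floor. Pseudogenes are close copies of coding H2B genes, so reads could be shared with them, and the sources used here do not say how such reads were assigned.

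The remaining H2B genes at the floor without hemin were HIST1H2BO, HIST1H2BE, HIST1H2BD, HIST1H2BN and HIST2H2BF, with log2 ratios from 0.81 in HIST1H2BD to 1.96 in HIST1H2BE. With hemin they lay between 0.48 in HIST2H2BF and 1.75 in HIST1H2BO, and HIST1H2BG joined them at 0.81. HIST3H2BB, HIST1H2BH, HIST1H2BL and HIST1H2BF stayed below the floor everywhere. The second transcripts of HIST1H2BD and HIST2H2BF gave log2 ratios of 0.50 and 1.80 without hemin, beside 0.81 and 1.23 for those used, and 0.72 and 0.83 with hemin, beside 0.95 and 0.48.

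H3 genes, which encode the core histone with the most studied modified tail, had the lowest summed level of the 5 classes. Of 7, 3 reached the floor in the knockdown comparisons. HIST1H3H (NM_003536) had the highest ratio of all members at the floor without hemin. Knockdown cells held 20.0 scaled TPM of its mRNA without hemin and 21.2 with it, and control cells 2.65 and 7.43. The log2 ratio was 2.70 (2.22 to 3.68, on 111 and 20 reads) without hemin and 1.45 (1.10 to 1.94) with hemin. The control without hemin was the low library of the 4.

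HIST2H3A and HIST2H3C again had identical values, at 6.38, 6.76, 2.23 and 4.33 scaled TPM in knockdown, knockdown with hemin, control and control with hemin. Their log2 ratio was 1.34 (0.68 to 2.42) without hemin and 0.59 (0.06 to 1.24) with it. This shared set of reads also sets the H3 median, 1.34 and 0.59, which became 2.02 and 1.02 when it was counted once. HIST2H3D, HIST1H3D, HIST1H3E and HIST1H3B stayed below the floor in all 4 libraries. HIST1H3E was the single distinct member with both knockdown libraries below both controls, at 6 and 17 reads in the knockdowns and 19 and 20 in the controls, and its intervals included equality.

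H4 genes, which encode the most conserved core histone, had unlike ratios. HIST1H4H (NM_003543) stood at 25.7 scaled TPM in knockdown cells without hemin, 31.0 in knockdown cells with it, and 4.36 and 15.7 in the matching control cells. Its log2 ratio was 2.43 (1.94 to 3.24) without hemin and 0.96 (0.65 to 1.32) with hemin. HIST2H4A and HIST2H4B, with identical values, stood at 18.1, 32.9, 22.0 and 21.6 in the same order. Without hemin their knockdown library was the lowest of the 4, and the log2 ratio of -0.28 had an interval that included equality (-0.69 to 0.12). With hemin it was 0.59 (0.32 to 0.90). They were the only members at the floor with a lower level in the knockdown, and this held under the 3 other scalings tried.

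The promoters of HIST1H4H and HIST2H4A printed above both hold GGTCCG at position -46 and neither holds TATAAA or CCAAT. HIST1H4K and HIST1H4J, the H4 genes with a TATAAA match, had log2 ratios of 1.63 and 1.93 without hemin and 0.72 and 0.78 with hemin. These are close copies with almost equal reads (59 and 59 in the knockdown), so they may share reads and are uncertain as separate genes. HIST1H4E stayed below the floor. Among the coding H2B genes, the median log2 ratio without hemin was 1.78 for those with an octamer match (7 at the floor) and 1.26 for the others (2 at the floor). Among H2A genes the order was the opposite, 1.63 (4 at the floor) and 2.26 (5 at the floor). The octamer matches of these H2A genes at the floor all lay on the other strand. The number of genes on each side is small, and no difference by motif was tested.

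By class, the summed level was 6.41 times as high in the knockdown for H1 without hemin, 4.19 for H2A, 2.45 for H2B, 2.93 for H3 and 2.11 for H4. With hemin the same ratios were 3.79, 2.76, 2.40, 1.97 and 1.75. H2B mRNA made up 58.4% of the histone sum in the control and 46.9% in the knockdown without hemin, and H2A mRNA 24.4% and 33.6%. With hemin the shares were much closer, at 56.7% and 54.5% for H2B and 22.3% and 24.7% for H2A. Among members at the floor, class medians ran from 1.34 for H3 to 2.64 for H1 without hemin, and the H4 members alone from -0.28 to 2.43, so the classes overlapped. All 3 H3 members at the floor without hemin reached it in the knockdown library alone. Without a floor the class medians were 2.64 (H1), 1.84 (H2A), 1.64 (H2B), 1.01 (H3) and 0.95 (H4). By locus, the median was 1.78 in HIST1 (17 at the floor) and 1.34 in HIST2 (11 at the floor) without hemin, and 1.07 (18) and 0.59 (11) with hemin.

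**Figure D3:**
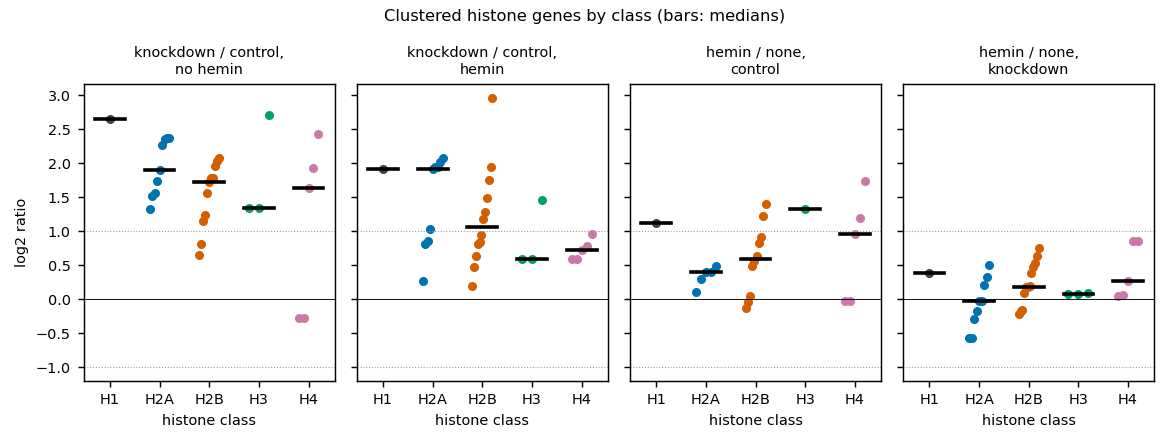
Log2 ratio of each member at the floor, by histone class (horizontal axis), in the 4 comparisons; bars are class medians and dotted lines mark 2-fold. In the knockdown comparison without hemin the H2A, H2B and H3 members all lie above 0 and HIST2H4A and HIST2H4B lie below it, and in the comparison of hemin within the knockdown no member reaches 2-fold.

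Knockdown ratios were then set side by side for the 29 members at the floor in both hemin states. Of these, 14 were at least 2-fold higher in both (2.76% of all genes) and 27 were above equality in both (36.7%). The floor itself favours such members. Without hemin 14 members reached it in the knockdown library alone and 0 in the control alone, against 390 and 458 of all genes. With hemin these were 8 and 0, against 394 and 352. The counts for both states were computed only at this floor, so their contrast with all genes is partly set by it. The counting interval lay above equality in both states for 26 of the 29, against 28.7% of all genes at the floor in both. The ratio was larger without hemin for 21 of the 29 (49.0% of these genes), and the median difference of the log2 ratios, with minus without hemin, was -0.70. HIST1H4H had the widest drop, a difference of -1.47 with a counting standard error of 0.36, followed by HIST1H2AK (-1.40, standard error 0.70), HIST1H3H (-1.25, 0.41) and HIST2H2BA (-1.23, 0.50). HIST1H2AC, with more reads, differed by -1.06 (0.18). HIST2H4A and HIST2H4B went the other way, by 0.87 (standard error 0.25). HIST1H2BK, the gene with the most reads, differed by only 0.14 (0.05). Counting error is not the spread between cultures, so none of these differences was tested.

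**Figure D4:**
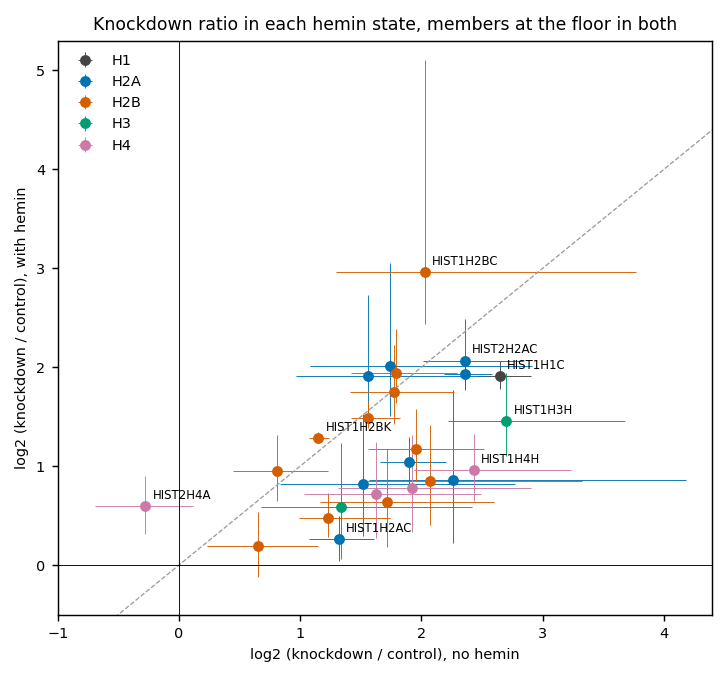
Log2 ratio of knockdown to control without hemin (horizontal) and with hemin (vertical) for the members at the floor in both states, with 1 point per distinct set of reads, coloured by class; bars are 95% counting intervals and the dashed line marks equal ratios. Points below the dashed line, such as HIST1H4H and HIST1H3H, had the larger ratio without hemin, and HIST2H4A and HIST1H2BC lie above it.

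With hemin the summed histone level was 1.46 times as high as without it in the control and 1.20 times in the knockdown, and the difference between these was not tested. In control cells, 6 of the 22 members at the floor were 2-fold or more higher with hemin (2.59% of all genes) and 0 lower by as much (2.59%). Of the 22, 7 reached the floor in the hemin library alone. By the mean over all 4 libraries, 6 of 24 members were at least 2-fold higher (2.38% of all genes so chosen). The median log2 ratio of the 22 was 0.53, and without a floor it was 0.53 over all 42. HIST1H4H had the highest ratio, 1.74 (1.22 to 2.53), followed by HIST2H2BA at 1.40, HIST1H3H at 1.33, HIST2H2BF at 1.23, HIST1H4J at 1.20 and HIST1H1C at 1.12. HIST1H2BK was at 0.49, HIST2H2AC at 0.11, and HIST1H2BJ at 0.04 with an interval that included equality. These ratios and the knockdown ratios without hemin share the control library without hemin.

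In knockdown cells, 0 of the 30 members at the floor were 2-fold or more higher with hemin (2.27% of all genes) and 0 lower by as much (1.7%), with a median log2 ratio of 0.13 and a range from -0.57 to 0.85. HIST2H4A and HIST2H4B had the highest ratio, 0.85 (0.51 to 1.24), then HIST2H2BE at 0.76 and HIST1H2BK at 0.63 (0.57 to 0.69). HIST1H2AC and HIST3H2A were at -0.57 and -0.57, with intervals below equality, and turned positive only when the deposited values were taken as they stand. Without HIST1H2BK the sum was 1.06 times as high with hemin.

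Many H2A and H2B genes lie head to head, sharing the stretch between their starts. Among the members, 9 such pairs started within 1000 bases of each other on GRCh38.p14. Their partners differed by a median of 0.80 on the log2 scale in the knockdown ratio without hemin and 1.00 with hemin. The closest pair without hemin was HIST1H2AG and HIST1H2BJ, at 1.52 and 1.79. HIST2H2AC and HIST2H2BE were at 2.36 and 1.56 without hemin and at 2.07 and 1.49 with hemin. The widest pair was HIST1H2AC and HIST1H2BC with hemin, at 0.26 and 2.96, where HIST1H2BC had 6 reads in the control. Several pairs include a gene below the floor, whose ratio carries a wide counting interval.

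Genes that make, process or carry histones were set beside the members. Replacement histone genes lie outside the clusters and many are expressed throughout the cell cycle as tailed mRNAs. Of the 15 with a row, 10 reached the floor, with median log2 knockdown ratios of 0.25 without hemin and 0.53 with it. In each state 2 of the 10 were higher by 2-fold or more and 1 was lower. The shares of all genes at the floor were 6.69% and 6.41% without hemin, and 5.99% and 4.13% with it. When the deposited values were taken as they stand, the median of all genes was -0.54 without hemin, and the medians of the replacement, processing and chaperone lists were then -0.33, -0.43 and -0.16. H1F0, a linker histone known to accumulate in cells that stop dividing, was lower: 246 scaled TPM in knockdown cells against 639.7 in control cells, and 193 against 471 with hemin, log2 ratios of -1.38 and -1.29. Its direction was opposite to that of HIST1H1C, the clustered linker histone. H1FX, the other replacement linker histone at the floor, went the same way as HIST1H1C. Its log2 ratio was 1.13 (1.05 to 1.21) without hemin and 0.63 (0.55 to 0.72) with hemin. CENPA, the histone H3 of centromeres, was at 0.91 and 1.55, H2AFX, whose protein is phosphorylated at DNA breaks, at 1.29 and 0.71, and H3F3B, which encodes H3.3, at 0.08 and -0.07.

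Factors of histone gene transcription and mRNA 3′ end processing (21 of 22 in the table) had median log2 ratios of 0.14 and 0.01. Without hemin, 0 genes lay 2-fold or more above the control (6.69% of all genes) and 1 as far below it (6.41%). With hemin these counts were 2 (5.99%) and 0 (4.13%). Of those tied to the histone mRNA and promoter themselves, SLBP, which binds the stem-loop, was at -0.07 and 0.17, and HINFP, which reads the H4 element, at -0.33 and -0.38. POU2F1, the gene of OCT1, was at -0.52 (-0.65 to -0.45) and -0.31 (-0.40 to -0.26). NPAT was at -0.81 and -0.06, and ERI1, an exonuclease that trims histone mRNA ends, at -1.09 and -0.36. The cyclin genes CCNE2 (0.34 and 1.64) and CCNA2 (0.71 and 1.43) had the highest mean ratios of the list. Histone chaperones, which carry histones to DNA, had medians of 0.42 and 0.53 over 19 genes. In each state 4 were at least 2-fold higher (6.69% and 5.99% of all genes) and 0 lower (6.41% and 4.13%). ASF1B was at 1.29 and 2.01 and HJURP, the chaperone of CENPA, at 1.18 and 1.83, while NAP1L1 was at -0.75 and -0.57 and ASF1A at -0.51 and -0.71.

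DNA replication genes mark cells in or near S phase. All 35 listed were above equality in both knockdown comparisons, against 36.7% of all genes at the floor in both. Their medians were 0.87 without hemin and 1.16 with hemin. At least 2-fold higher were 12 without hemin (6.69% of all genes) and 23 with hemin (5.99%). GINS3, a subunit of the replicative helicase complex, was at 1.32 and 1.90, and TK1, a thymidine kinase, at 1.27 and 1.80. RPA2 (0.33 and 0.47), which binds single-stranded DNA, and PRIM1 (0.19 and 0.64), a primase subunit, had the lowest mean ratios. Replication genes thus moved in the same direction as the histone genes, and their part in the histone ratios was not tested. The order across hemin differed: the histone median was the larger without hemin (1.74 against 0.95), the replication median the larger with it. Hemin in the control went with a histone median of 0.53 and a replication median of -0.50. Of 34 replication genes at the floor there, 3 were at least 2-fold lower (2.59% of all genes) and 0 higher (2.59%).

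Structural RNAs without a poly-A tail (22 in the table, 12 to 14 at the floor) were taken as a gauge of untailed RNA in each library. Their median log2 ratio of knockdown to control was -0.54 without hemin, where the histone median was 1.74. Of these RNAs, 1 was at least 2-fold higher (6.69% of all genes) and 5 lower (6.41%). With hemin the median was 1.09, with 7 RNAs higher (5.99%) and 1 lower (4.13%). Between hemin and none it was 0.66 in the control and 2.20 in the knockdown, where the histone median was 0.13. The 5 lower RNAs without hemin had only 1 to 14 reads in the knockdown and 15 to 55 in the control. SCARNA11 was counted on a transcript of 2196 bases, the longest of the list. The gauge is thus rough, and the part of untailed RNA in the histone ratios was not tested. The 4 comparisons share libraries, so these medians are not independent of each other.

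**Figure D5:**
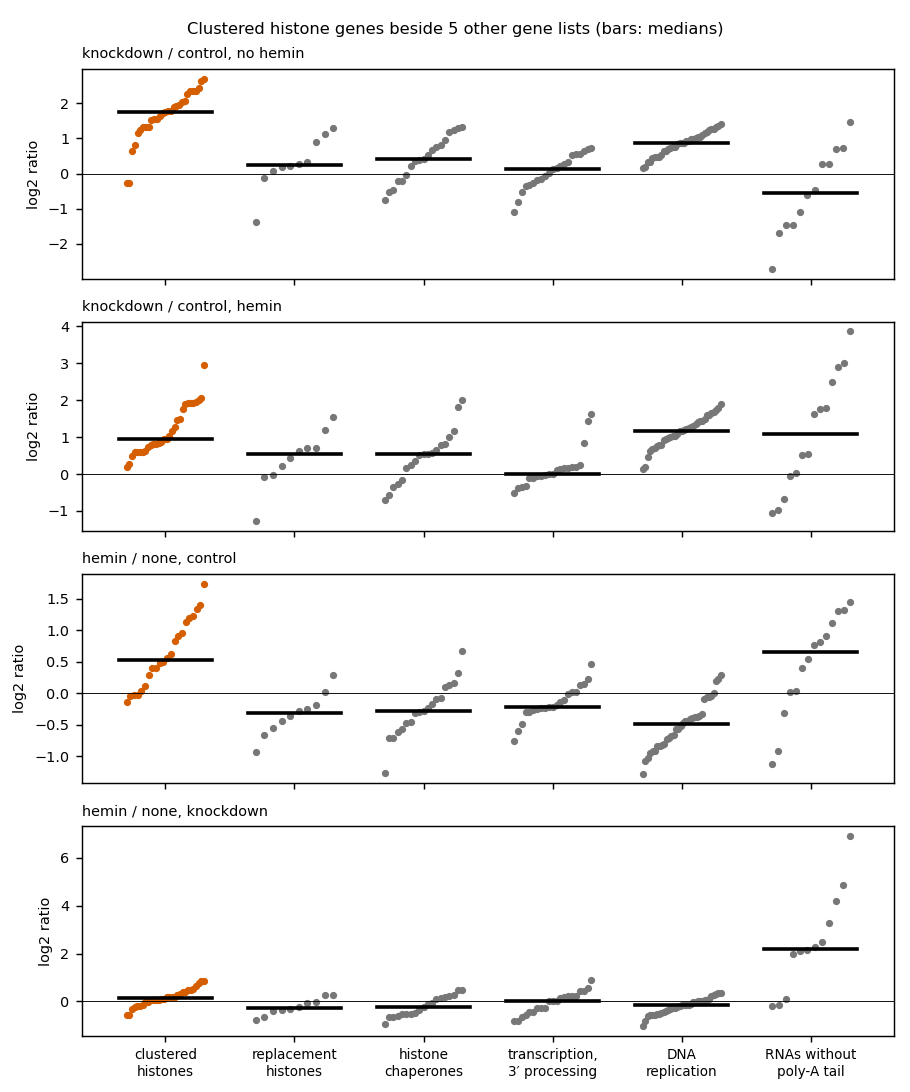
Log2 ratio of each gene at the floor, in order of size, for the clustered histone genes (orange) and 5 other lists (grey), in the 4 comparisons (rows); bars are medians. The histone median is the highest of the 6 in the knockdown comparison without hemin (1.74), and the RNAs without a poly-A tail are the highest where hemin is compared within the knockdown (2.20).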

How the data were processed

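RNA from 4 HEL groups was sequenced, 1 library each, from 250 ng of total RNA. The deposited table gives RPKM for each RefSeq transcript, as stated per the file headers. The submitters' processing notes name Bowtie and hg19. The counting rule, its use of strand and the handling of reads shared by copies are unknown from the sources used here. The deposited RPKM were whole reads over length times a factor per library, not scaled to depth, contrary to the planned design. Whole reads were recovered for 24532 of the 24533 rows that did not hold whole numbers only (5 rows did), and for all 44 histone rows, within 0.0002 reads plus a relative 4e-09. A common factor was resolved by requiring a whole transcript length (986 rows were multiplied, 3 of them histone rows). Chromatin data of the series were not used here.

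For each gene the transcript of highest mean RPKM was taken, and a transcript listed under several symbols was counted once. Reads over length were divided by the read total, adjusted by trimmed mean of M values factors (TMM, trims of 0.3 and 0.05) of 0.969 to 1.03, and set to a mean sum of 1000000 (scaled TPM). Log2 ratios used a pseudocount of 0.5, a floor of 5 in the higher library and a 2-fold limit. Intervals at 95% reflect counting error alone, as reads lacking molecular identifiers need not be separate molecules. The median half-width over members at the floor was 0.35 to 0.46 on the log2 scale. Named genes were, per class, the 3 most abundant members and those with the highest and lowest ratio in each knockdown comparison. Members sharing reads were named as well, and any member 2-fold against its class. Of each other list at the floor, the 2 highest and 2 lowest by mean ratio were named. This was not done for the lineage markers or for the structural RNAs, of which only SCARNA11 is named, for its length. The other members are named to account for every member, and H1FX, SLBP, HINFP and POU2F1 are named outside this rule. The members and lists were chosen with earlier results of these data known. The steps were tested on simulated data. Alternatives covered scaling, pseudocount, floor, fold limit, transcript choice and left-out members. Python 3.11.15, numpy 2.4.6, scipy 1.17.1 and pandas 2.3.3 were used. RefSeq symbols matched all 42 members. Some lineage markers checked are not reported here.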

Additional observations from a re-analysis of the deposited data

Results flagged for a closer look

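HIST1H2AC had hemin ratios of opposite sign in the control and the knockdown, each with a counting interval that left out equality. Its log2 ratio of hemin to none was 0.48 in the control (95% counting interval 0.21 to 0.77, on 281 and 175 reads) and -0.57 in the knockdown (-0.80 to -0.36, on 390 and 326 reads). Each state is 1 library pair, and the difference was not tested. No other histone gene met this criterion, in the hemin or in the knockdown comparisons. HIST1H2AC is an H2A gene of the HIST1 locus, and its head-to-head partner HIST1H2BC, on 6 to 85 reads, was at -0.39 in control cells and 0.53 in knockdown cells, both with intervals that included equality. Taking the deposited values as they stand turns the HIST1H2AC ratio in the knockdown positive, as the median of all genes then stands at 0.93.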

How the results depend on the processing

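No paired analysis was possible because each group was a single library and the columns carry no replicate numbers. Of 517 values recomputed under 16 alternatives, 469 moved by less than the counting spread or by less than 1.5 times for counts, 47 moved by more and 1 changed sign. Plain library totals, equal medians, a pseudocount of 0.1, the transcript with the most reads, the interval criterion, and leaving out the pseudogenes or HIST1H2BK moved none. Deposited values taken as they stand, which carry depth (median of all genes -0.54, 0.22, 0.15 and 0.93 in the 4 comparisons), gave in the knockdown without hemin a histone median of 1.20, 16 members at least 2-fold higher, and class medians of 2.07 (H1), 1.32 (H2A), 1.08 (H2B), 2.13 (H3) and 1.07 (H4). With hemin they gave 24 members and an H3 median of 1.01, and for hemin within the knockdown a median of 1.08 and 20 members higher. In that last comparison the median of all genes was 0.93, so a count past 2-fold says little about the histone genes. A pseudocount of 2 gave 3 members higher with hemin in the control. Without a floor the H4 median without hemin was 0.95, and 10 and 1 members were higher with hemin in control and knockdown. Of all 14903 genes, 402 and 385 were as much higher without a floor. For the other counts of members in this paragraph the share of all genes was not computed. A floor of 20 turned the H4 median without hemin to -0.28, as HIST2H4A and HIST2H4B then outnumbered HIST1H4H, and gave 12 members higher; with hemin it gave a histone median of 1.37 and an H3 median of 1.45, and 1 member higher with hemin in the control. Means gave 1.09 for H4 without hemin and 1.43 for H2A with it. A limit of 1.5-fold gave 27 members higher in the knockdown with hemin, and 10 and 4 with hemin in control and knockdown; a limit of 3-fold gave 9 and 1 for the knockdown with hemin and hemin in the control. Chosen after seeing the data, counting identical copies once gave H3 medians of 2.02 and 1.02 and an H2A median with hemin of 1.48, and asking for 20 reads in every library gave an H4 median of 0.68 without hemin. Of 216 values for single named members 17 moved and 0 changed sign. Depth limits the low members most: those below the floor had 1 to 59 reads.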
